A study of Mus musculus with 6 samples.

Results

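The genes described here are 44 mouse genes of DNA replication and mitosis, chosen by symbol, of 24537 genes in the deposited RNA sequencing (RNAseq) table. They form a group of 22 replication genes, which license, unwind and copy DNA or supply its precursors, and a group of 22 mitosis genes, which drive entry into mitosis and the separation of the chromosomes. The libraries came from immortalized murine brown preadipocytes differentiated for 6 days, a single cell line. In 3 libraries the cells had received 4-chlorobenzoic acid (4CBA, 4 mM), an inhibitor of COQ2, the prenyl transferase of coenzyme Q synthesis. In the other 3 libraries, CTL, they had received vehicle. Treatment began at day 4 and lasted 48 h per the labels, with the medium renewed after 24 h, whereas the written methods give 24 h as the length of treatment. According to the same methods, biological replicates were pooled to make the RNA, so the p-values measure the spread between libraries, which may be technical.

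A cell copies its DNA only once per division. In G1 phase the origin recognition complex, CDC6 and CDT1 load the ring of MCM2 to MCM7 onto DNA, and CDC45 and the GINS complex later turn that ring into the working helicase. E2F factors drive the genes for these proteins around the start of S phase, while most mitotic genes are switched on later, in G2, by the MuvB complex with B-MYB and FOXM1. Preadipocytes in culture divide, and division ends as they mature into fat cells. In bulk RNA, fewer cycling cells and less RNA per cell cannot be told apart.

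Windows of 300 bases around the RefSeq start sites (GRCm38.p6, 250 bases before and 50 after) were matched by symbol for 19 replication and 17 mitosis genes. These were searched on both strands for the CHR element TTTGAA (other strand TTCAAA), which MuvB complexes bind, and for the CCAAT box (ATTGG on the other strand) of the factor NF-Y. They were also searched for 4 E2F words, TTTCCCGC, TTTCGCGC, TTTGCCGC and TTTGGCGC, with GCGGGAAA, GCGCGAAA, GCGGCAAA and GCGCCAAA on the other strand. A CHR word was present in 12 of 17 mitosis windows (70.6%) and in 2 of 19 replication windows (10.5%), beside 11.4% of the windows of 9633 tested genes. E2F words showed the reverse order, with 1 mitosis window (5.88%), that of Cdk1, 7 replication windows (36.8%) and 4.32% of the tested genes. CCAAT boxes were frequent in both groups, in 15 mitosis windows (88.2%) and 11 replication windows (57.9%), against 39.1% of the tested genes. All 12 mitosis windows with a CHR also held a CCAAT box, a pair found in 4.87% of the tested genes. Words were chosen with results of these data known, so the shares are a description without a test, and a match is not a shown binding site.

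The 180 bases before the RefSeq start are shown for 6 genes, 5′ to 3′ on the strand of the gene. They set mitosis genes beside 2 MCM genes, of which Mcm2 rose and Mcm6 was not called. The genes were picked by hand. Each mitosis gene shown holds both a CHR word and a CCAAT box, so they do not stand for the 5 mitosis windows without a CHR word. Capitals mark the words named above, and words can overlap, as a pair of E2F words does in Mcm6.
Cdc20 (chr4:118437344-118437523, minus strand): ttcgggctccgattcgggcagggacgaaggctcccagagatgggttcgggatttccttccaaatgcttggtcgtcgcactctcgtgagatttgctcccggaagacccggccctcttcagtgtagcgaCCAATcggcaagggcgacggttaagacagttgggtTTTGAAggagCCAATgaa
Cdk1 (chr10:69352913-69353092, minus strand): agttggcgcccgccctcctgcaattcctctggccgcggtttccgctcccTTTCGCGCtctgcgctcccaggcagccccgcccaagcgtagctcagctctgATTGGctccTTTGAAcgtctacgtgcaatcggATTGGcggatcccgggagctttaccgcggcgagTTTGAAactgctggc
Kif11 (chr19:37376202-37376381, plus strand): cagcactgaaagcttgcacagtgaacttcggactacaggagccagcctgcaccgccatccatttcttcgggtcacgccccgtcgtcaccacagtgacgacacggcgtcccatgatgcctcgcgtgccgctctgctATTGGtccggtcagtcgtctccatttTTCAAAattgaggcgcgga
Top2a (chr11:99024190-99024369, minus strand): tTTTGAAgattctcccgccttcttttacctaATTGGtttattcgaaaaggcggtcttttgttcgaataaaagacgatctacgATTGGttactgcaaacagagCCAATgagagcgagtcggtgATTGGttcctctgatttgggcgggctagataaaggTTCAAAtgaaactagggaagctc
Mcm2 (chr6:88898781-88898960, minus strand): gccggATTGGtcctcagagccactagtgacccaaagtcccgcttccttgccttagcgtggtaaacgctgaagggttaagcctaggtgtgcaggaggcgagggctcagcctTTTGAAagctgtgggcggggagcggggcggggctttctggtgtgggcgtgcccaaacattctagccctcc
Mcm6 (chr1:128359706-128359885, minus strand): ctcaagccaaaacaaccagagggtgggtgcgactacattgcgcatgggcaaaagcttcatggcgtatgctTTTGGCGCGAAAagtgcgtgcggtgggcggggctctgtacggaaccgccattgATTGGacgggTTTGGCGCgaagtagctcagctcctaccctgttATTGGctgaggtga
Cdc20 carried its CHR with the first base at position -18 from the start, between CCAAT boxes at -53 and -8. In Kif11 the CHR, read on the other strand, lay at -19, and in Top2a the nearest one lay at -23. Mcm6 showed E2F words and no CHR, whereas Mcm2 showed a CHR at -70 and no E2F word. Longer gene models begin before the start used here for 3 of these genes, so that the last 26 bases for Cdk1 and the last 9 for Cdc20 (GENCODE) and the last 10 for Top2a (RefSeq) belong to some transcripts.

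**Figure D1:**
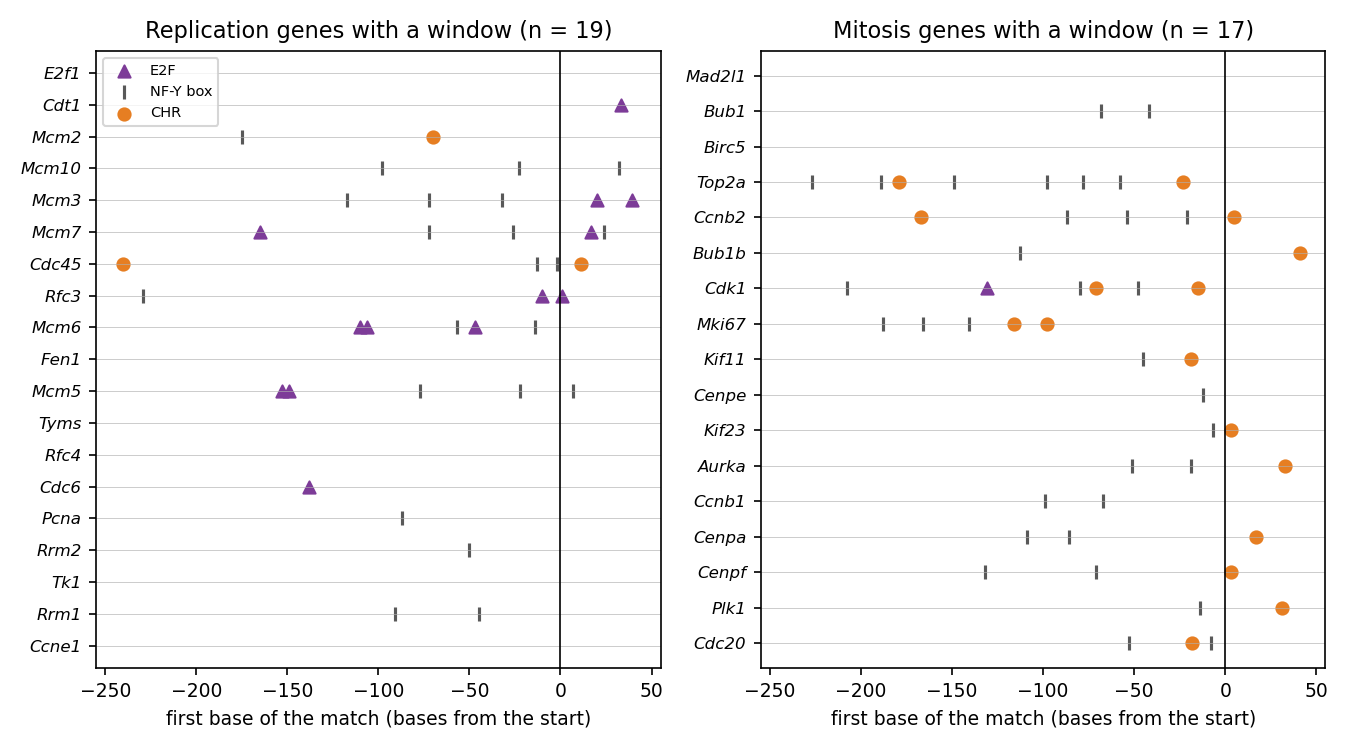
Positions of E2F words (triangles), NF-Y boxes (CCAAT, bars) and CHR words (circles) in bases from the RefSeq start (vertical line), for replication genes (left) and mitosis genes (right), each ordered with the lowest fold change at the bottom. CHR words stand in 12 of 17 mitosis windows and in 2 of 19 replication windows.

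All 44 genes passed the filter on low values, at least 0.5 RPKM in at least 3 libraries. Their median level was 41.0 RPKM, reads scaled to exon length and library size, in 4CBA libraries and 55.2 RPKM in CTL libraries, above 85.8% and 90.4% of the 12659 tested genes in the same groups. Estimated read numbers behind a single value ranged between 153 for Gins1 and 11128 for Top2a, at an estimated 9400000 to 12200000 reads per library. A gene was called when its adjusted p over all tested genes was below 0.05 with limma on log2(RPKM + 1), and each fold change is on that scale, which understates the change of low genes. A fold, in contrast, is the ratio of the group means in RPKM. Most of the transcriptome differed by this rule. Across all tested genes 68.4% were called, 38.4% higher and 30.0% lower in 4CBA, with a median log2 fold change of 0.06. Of all calls 56.1% were higher, a share of 45.7% after scaling libraries to the same median and of 50.5% with the deposited log2 values. A count of members is read against these shares.

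Mitosis genes were lower in 4CBA throughout, while replication genes were divided. All 22 mitosis genes were called lower, with a median log2 fold change of -0.97 and a range of -1.63 to -0.26. Among the 22 replication genes 9 were called lower, 6 were called higher and 7 were not called, with a median of -0.08. Of all tested genes 30.0% were called lower and 38.4% higher. The replication counts lay near these shares, slightly to the lower side, a difference that was not tested. Those of the mitosis genes lay far from them. After scaling libraries to the same median, 13 replication genes were called lower and 5 higher. By the same scaling, 4693 of the 12659 tested genes were called lower and 3950 higher. With the deposited log2 values, 12 replication genes were called lower and 6 higher. A log2 fold change of -1 or less together with a call was reached by 10 mitosis genes and 1 replication gene, against 6.00% of all tested genes. The 3 values of 4CBA lay below all 3 values of CTL for 21 mitosis genes and 12 replication genes, as they did for 31.8% of tested genes. They lay above all CTL values for 7 replication genes and 0 mitosis genes, against 40.9% of tested genes.

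The separation of both groups stood in each of the 3 4CBA libraries. Averaged over its 22 genes, the mitosis group lay -0.80, -0.89 and -0.90 log2 units from the CTL mean in the 3 4CBA libraries, and the replication group -0.08, -0.08 and -0.13. Summed RPKM of mitosis genes over that of replication genes was 0.537, 0.507 and 0.504 in 4CBA libraries, against 0.850, 0.820 and 0.850 in CTL libraries. The ratio thus did not overlap between the groups. No test over the members was made, since they were chosen with results of these data known.

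**Figure D2:**
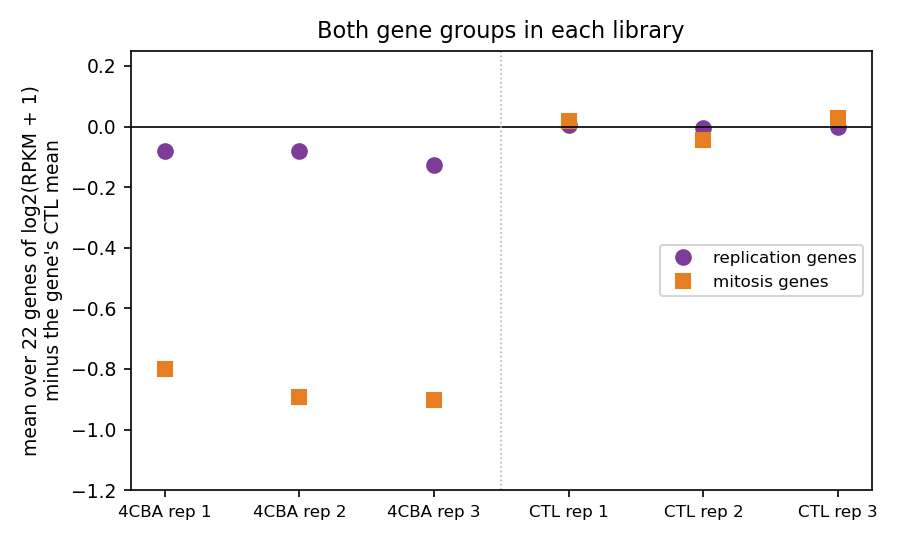
Mean over 22 replication genes (circles) and 22 mitosis genes (squares) of log2(RPKM + 1) minus the CTL mean of each gene, for each library. Mitosis genes lie between -0.90 and -0.80 in the 4CBA libraries, replication genes between -0.13 and -0.08.

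**Figure D3:**
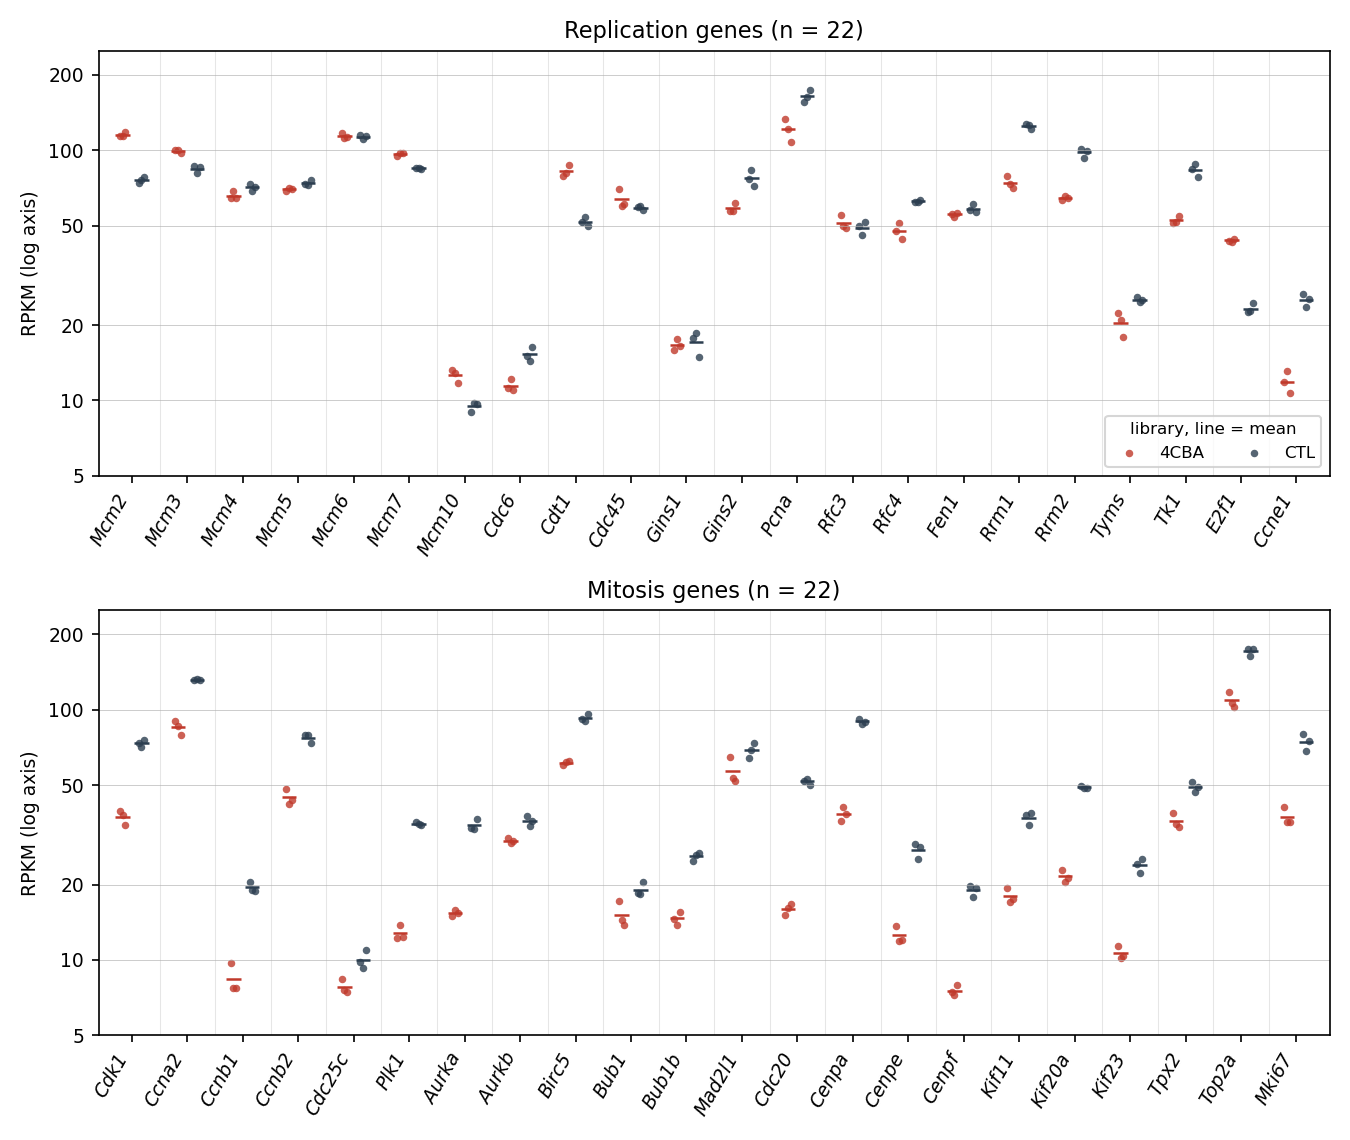
RPKM of all 44 genes on a log axis, 1 point per library and a line at each group mean, 4CBA left of CTL. Among mitosis genes only Mad2l1 has a 4CBA library (64.8 RPKM) above a CTL library (64.3 RPKM).

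Of the 12 licensing and helicase genes, 5 were called higher and 2 lower. The share called higher is near the 38.4% of all tested genes, and it includes Mcm7, whose call was lost under scaling. Mcm2, a subunit of the helicase ring, measured 114.1, 114.1 and 117.9 RPKM in 4CBA libraries, against 73.8, 76.3 and 78.5 RPKM in CTL libraries. All 4CBA values were above all CTL values, and the fold was 1.51 (log2 fold change 0.59 ± 0.05 SE, limma adjusted p = 6.7e-07). Cdt1, the loading factor that brings the ring to origins, measured 78.6, 81.1 and 87.6 RPKM in 4CBA libraries and 51.9, 53.9 and 49.9 RPKM in CTL libraries. It was 1.59-fold higher, again without overlap (log2 fold change 0.66 ± 0.06 SE, limma adjusted p = 9.3e-07).

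The remaining ring subunits moved little. Mcm3 averaged 99.2 ± 1.53 RPKM in 4CBA and 84.3 ± 2.83 RPKM in CTL (SD, n = 3 each) and was called higher, with a log2 fold change of 0.23. Mcm7 averaged 96.6 ± 1.71 RPKM in 4CBA and 84.9 ± 0.34 RPKM in CTL and was also called higher, by 0.18, but this call did not hold after scaling libraries to the same median (0.07, limma adjusted p = 0.214). Mcm6 measured 117.0, 112.3 and 112.8 RPKM in 4CBA libraries, against 115.1, 111.1 and 114.3 RPKM in CTL libraries. Its groups overlapped, and the 95% interval of its log2 fold change ran between -0.10 and 0.11. Mcm4 and Mcm5 were not called, at -0.11 and -0.08, although the 3 values of 4CBA lay below those of CTL for both. After the same scaling Mcm4, Mcm5 and Mcm6 were called lower, at -0.23, -0.20 and -0.11, while Mcm2 and Mcm3 were still called higher.

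The 6 subunits of the ring enter it in equal number, but their transcripts did not keep 1 proportion. Mcm2 made up 20.4%, 20.3% and 21.1% of the summed RPKM of Mcm2 to Mcm7 in 4CBA libraries, against 14.6%, 15.4% and 15.4% in CTL libraries. Mcm4 made up 11.5%, 12.2% and 11.5% in 4CBA libraries, against 14.4%, 13.9% and 14.0% in CTL libraries. The summed level of the 6 transcripts was 558.7 to 563.3 RPKM in 4CBA libraries and 495.3 to 510.4 RPKM in CTL libraries. Neither the shares of Mcm2 and Mcm4 nor the sums overlapped between the groups. The sums are of unscaled RPKM and were not recomputed after scaling libraries to the same median. That scaling moved the median log2 fold change of all tested genes by -0.099, and it does not alter the shares. These shares, like the ratios of 2 genes given further on, were chosen after the values were seen.

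Genes that act beside the ring were split as well. Mcm10, a helicase activator, measured 13.2, 12.9 and 11.8 RPKM in 4CBA libraries, against 8.97, 9.79 and 9.63 RPKM in CTL libraries, and was called higher by 0.38. Cdc6, which acts with CDT1 in loading, measured 11.2, 12.2 and 11.0 RPKM in 4CBA libraries and 15.1, 14.4 and 16.4 RPKM in CTL libraries. It was called lower at -0.39, so that Cdt1 over Cdc6 was 6.65 to 7.95 in 4CBA libraries, against 3.05 to 3.73 in CTL libraries. Gins2, a GINS subunit, was called lower at -0.39, with 58.6 ± 2.33 RPKM in 4CBA and 77.3 ± 5.93 RPKM in CTL. Its partner Gins1 (-0.03) and the helicase factor Cdc45 (0.11) were not called.

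Of the genes that work at the fork, Pcna and Rfc4 fell, while Rfc3 and Fen1 were not called. Pcna, the sliding clamp of the polymerases, measured 133.6, 122.2 and 107.9 RPKM in 4CBA libraries, against 156.5, 163.8 and 174.4 RPKM in CTL libraries. The groups did not overlap, although the 4CBA values were spread widely, and the log2 fold change was -0.45. Rfc4 and Rfc3 encode subunits of the loader of that clamp. They averaged 47.7 ± 3.68 and 51.2 ± 3.38 RPKM in 4CBA, against 62.6 ± 0.80 and 49.1 ± 3.13 RPKM in CTL, with log2 fold changes of -0.39 and 0.06. Fen1, the nuclease that trims flaps of the lagging strand, was at -0.08.

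The nucleotide supply genes were all called lower, 4 of 4, with a median of -0.63, against 30.0% of all tested genes called lower. Rrm1, the large subunit of ribonucleotide reductase, measured 79.0, 73.2 and 70.8 RPKM in 4CBA libraries, against 127.7, 126.1 and 121.8 RPKM in CTL libraries. Its small subunit Rrm2 measured 63.0, 65.8 and 64.5 RPKM in 4CBA libraries and 101.4, 93.3 and 99.7 RPKM in CTL libraries. The groups were well apart for both subunits, at log2 fold changes of -0.75 and -0.60. Tk1, thymidine kinase, measured 51.2, 51.9 and 54.7 RPKM in 4CBA libraries, against 84.6, 87.8 and 78.0 RPKM in CTL libraries, a log2 fold change of -0.65. Thymidylate synthase, Tyms, showed the smallest change of these genes, -0.30, with 20.4 ± 2.20 RPKM in 4CBA and 25.3 ± 0.68 RPKM in CTL.

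Both genes of G1/S control moved in opposite directions and were the outermost replication genes. E2f1, the activator of S phase genes, measured 43.4, 43.1 and 44.2 RPKM in 4CBA libraries, against 22.5, 22.7 and 24.5 RPKM in CTL libraries. It was 1.88-fold higher (log2 fold change 0.88 ± 0.05 SE, limma adjusted p = 4.9e-08). Ccne1, cyclin E1, the partner of CDK2 at S phase entry, measured 11.9, 13.1 and 10.7 RPKM in 4CBA libraries and 26.6, 23.6 and 25.4 RPKM in CTL libraries. It was 2.12-fold higher in CTL (log2 fold change -1.02 ± 0.08 SE, limma adjusted p = 2.6e-07). The ratio of E2f1 over Ccne1 was 3.28 to 4.15 in 4CBA libraries, against 0.846 to 0.967 in CTL libraries.

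**Figure D4:**
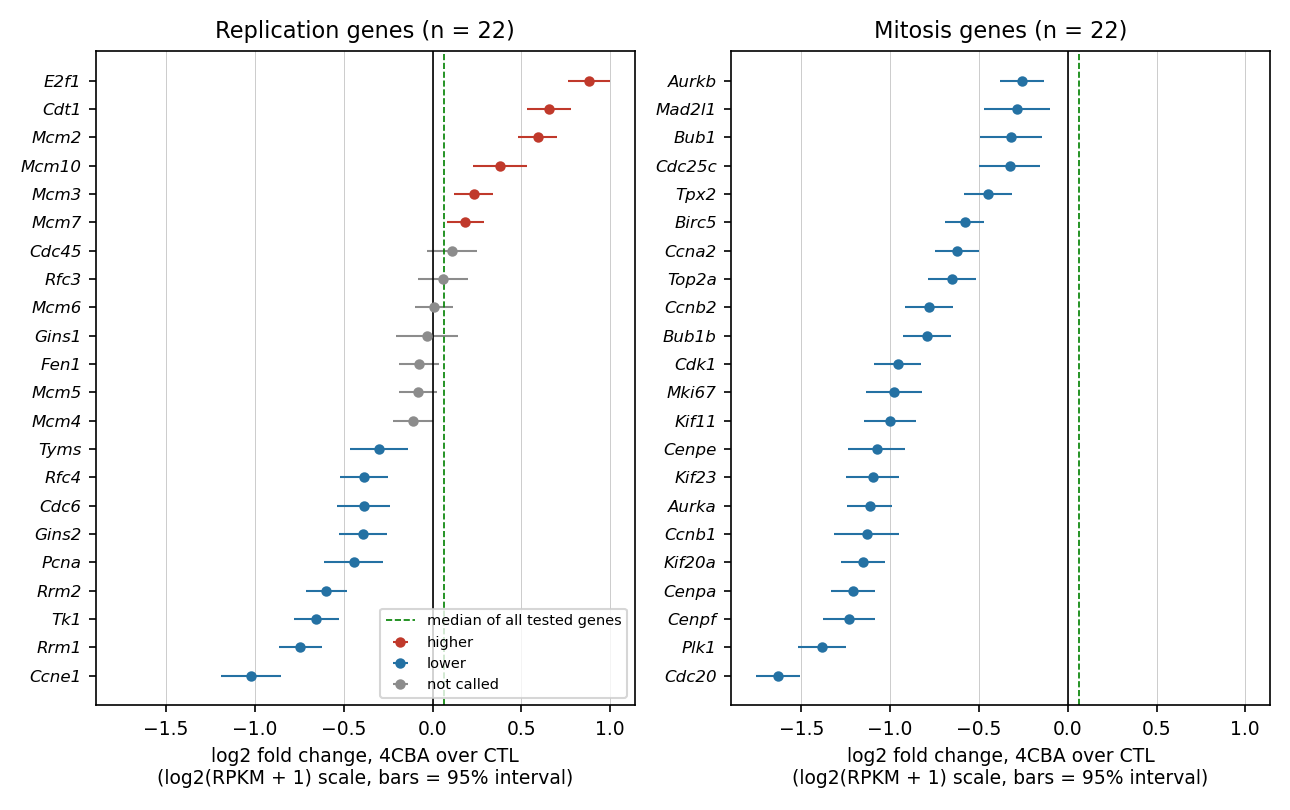
Log2 fold change of 4CBA over CTL with its 95% interval for each replication gene (left) and mitosis gene (right), red for called higher, blue for called lower and gray for not called, with the median of all tested genes (0.06) as a dashed line. E2f1 stands highest at 0.88 and Cdc20 lowest at -1.63.

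Among the mitosis genes, the largest decrease was that of Cdc20, the activator through which the anaphase-promoting complex (APC/C) starts anaphase. Cdc20 measured 15.2, 16.1 and 16.8 RPKM in 4CBA libraries, against 51.93, 53.03 and 50.02 RPKM in CTL libraries. It was 3.23-fold higher in CTL (log2 fold change -1.63 ± 0.06 SE, limma adjusted p = 3.5e-10). The checkpoint genes that restrain CDC20 fell less, Bub1b at -0.79, Bub1 at -0.32 and Mad2l1 at -0.29. Mad2l1 measured 64.8, 53.6 and 51.7 RPKM in 4CBA libraries and 64.3, 69.2 and 73.8 RPKM in CTL libraries, the only mitosis gene whose groups overlapped.

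The mitotic kinases differed from each other. Plk1, polo-like kinase, measured 12.2, 13.8 and 12.3 RPKM in 4CBA libraries, against 35.5, 34.8 and 34.6 RPKM in CTL libraries. It was 2.73-fold higher in CTL (log2 fold change -1.38 ± 0.06 SE, limma adjusted p = 2.3e-09). Aurka, the Aurora kinase of the spindle poles, measured 15.0, 15.9 and 15.4 RPKM in 4CBA libraries and 33.8, 33.3 and 36.6 RPKM in CTL libraries. Its log2 fold change was -1.12, and the 95% interval, -1.24 to -0.99, stood apart from that of its relative Aurkb, -0.38 to -0.14. Aurkb, the kinase of the chromosomal passenger complex, had the smallest change of the group, with 30.7, 29.2 and 29.9 RPKM in 4CBA libraries, against 37.7, 34.3 and 35.8 RPKM in CTL libraries. Birc5, survivin, the subunit that brings this complex to centromeres, was at -0.58.

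The genes of CDK1, its cyclins and its phosphatase were called lower, 5 of 5, against 30.0% of all tested genes. Cdk1, the kinase that drives entry into mitosis, measured 39.5, 38.0 and 34.6 RPKM in 4CBA libraries, against 73.9, 71.0 and 75.4 RPKM in CTL libraries, a log2 fold change of -0.96. Ccnb1, cyclin B1, its mitotic partner, measured 9.71, 7.73 and 7.75 RPKM in 4CBA libraries and 20.6, 19.1 and 18.9 RPKM in CTL libraries, a log2 fold change of -1.13. Cyclin A2, which acts in S phase as well as G2, fell less. Ccna2 measured 90.6, 86.1 and 79.3 RPKM in 4CBA libraries, against 132.0, 132.6 and 130.9 RPKM in CTL libraries, a log2 fold change of -0.62. The ratio of Ccna2 over Ccnb1 was 9.33 to 11.1 in 4CBA libraries, against 6.42 to 6.95 in CTL libraries. Ccnb2, cyclin B2, was at -0.78, and Cdc25c, the phosphatase that activates CDK1, at -0.33.

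The 3 centromere genes were called with a log2 fold change of -1 or less, as were 6.00% of all tested genes. Cenpa, the histone variant that marks centromeres, measured 36.1, 40.8 and 38.2 RPKM in 4CBA libraries, against 92.2, 88.1 and 89.2 RPKM in CTL libraries, a log2 fold change of -1.21. Cenpf, a kinetochore protein, measured 7.41, 7.21 and 7.90 RPKM in 4CBA libraries and 19.7, 17.8 and 19.5 RPKM in CTL libraries, a log2 fold change of -1.23. Cenpe, the motor that carries chromosomes to the spindle equator, was at -1.08. In each of the 3 genes the groups stood well apart.

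Of the spindle genes, 3 of 4 were called with a log2 fold change of -1 or less, against 6.00% of all tested genes. Kif20a, a motor of cytokinesis, measured 22.9, 20.6 and 21.2 RPKM in 4CBA libraries, against 49.4, 48.8 and 48.9 RPKM in CTL libraries, a log2 fold change of -1.15. Kif23, which bundles microtubules of the midzone, measured 11.3, 10.2 and 10.4 RPKM in 4CBA libraries and 24.2, 22.2 and 25.4 RPKM in CTL libraries, a log2 fold change of -1.10. Kif11, the motor that pushes the spindle poles apart, was at -1.002. Tpx2, a spindle assembly factor that activates Aurora A, fell by 0.45 on the log2 scale.

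The proliferation marker Mki67 (Ki-67) measured 40.9, 35.7 and 35.6 RPKM in 4CBA libraries, against 80.3, 68.5 and 74.9 RPKM in CTL libraries. It was 1.99-fold higher in CTL, and in 4CBA libraries it was still above 84.0% of tested genes, against 93.4% in CTL libraries. Top2a, the topoisomerase that untangles sister chromatids, was the most abundant mitosis gene, with 118.0, 106.5 and 102.2 RPKM in 4CBA libraries, against 174.7, 163.6 and 175.7 RPKM in CTL libraries. Its log2 fold change was -0.65. Across the 44 genes, Pearson's r between mean CTL level, as log2(RPKM + 1), and log2 fold change was 0.01. It was -0.21 in the replication group and 0.03 in the mitosis group. Level in CTL thus showed little linear relation to the changes across the 44 genes, which share libraries and are not independent.

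Within the mitosis group, the 12 genes with a CHR word had a median log2 fold change of -1.05, with a range of -1.63 to -0.65, and the 5 genes with a window but no CHR word had a median of -0.58, with a range of -1.13 to -0.29. Ccnb1, at -1.13, was thus among the genes that fell most and had no CHR word in its window. Within the replication group, the 7 genes with an E2F word had a median of 0.06 and the 12 without had a median of -0.34. E2f1 itself, at 0.88, had none of the words in its window. For the CCAAT box, the mitosis medians were -1.08 with it (15 genes) and -0.43 without it (2 genes). In the replication group they were 0.06 with it (11 genes) and -0.34 without it (8 genes). These splits rest on overlapping sets, since all 12 mitosis genes with a CHR word are among the 15 with a CCAAT box. Replication windows with an E2F word, such as that of Mcm6, could hold a CCAAT box too. The splits by word therefore cannot be told apart. The 2 replication genes with a CHR word had a median of 0.35, against -0.08 for the 17 without. These medians are descriptive.

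Other genes of the same pathways, in 6 lists of 187 genes chosen with earlier results known, were counted in the same fit. Of the 76 other mitosis genes, 58 were called lower, 5 higher and 13 were not called, against 30.0% lower and 38.4% higher of all tested genes. Their median of -0.47 was a smaller change than the -0.97 of the mitosis group. A call with a log2 fold change of -1 or less was reached by 6 of the 76, near the 6.00% of all tested genes. In the mitosis group 10 of 22 reached it. Aspm, a spindle pole protein, measured 4.68, 4.63 and 4.83 RPKM in 4CBA libraries, against 15.4, 13.9 and 14.3 RPKM in CTL libraries, a log2 fold change of -1.44. Cdca3, which promotes mitotic entry, averaged 37.5 ± 2.97 RPKM in 4CBA and 90.4 ± 1.25 RPKM in CTL, at -1.25. The outermost genes in the other direction were the kinetochore genes Zwint (0.35) and Cenph (0.34), both called higher. The count of genes called higher was 3 after scaling and also without CTL replicate 2, 4CBA replicate 1 or 4CBA replicate 2.

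The 49 other replication genes moved in both directions, with 26 lower, 12 higher and 11 not called, and a median of -0.20. They leaned to lower against the shares of all tested genes, 30.0% lower and 38.4% higher. After scaling libraries to the same median, 30 were called lower and 9 higher. Recql4, a helicase that takes part in the start of replication, rose more than any member. It measured 33.9, 31.9 and 36.3 RPKM in 4CBA libraries, against 7.99, 7.59 and 8.50 RPKM in CTL libraries, a fold of 4.24 (log2 fold change 1.96 ± 0.07 SE, limma adjusted p = 3.0e-10). Orc2, a subunit of the origin recognition complex, was called higher at 0.61. Dtymk, thymidylate kinase, acts after TK1 and thymidylate synthase in making dTTP. It measured 25.4, 26.6 and 25.5 RPKM in 4CBA libraries, against 82.5, 79.2 and 81.6 RPKM in CTL libraries, a log2 fold change of -1.61. Ccne2, the second cyclin E, was at -0.96 and so moved in the direction of Ccne1.

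Of 18 E2F, pocket protein and MuvB genes, 7 were called higher, 5 lower and 6 were not called, with a median of 0.15. These are about the shares of all tested genes (38.4% higher, 30.0% lower), and after scaling libraries to the same median 3 of the 18 were called higher. Lin54, the MuvB subunit that contacts the CHR, was at 0.50 and E2f4, the E2F of repressor complexes, at 0.47, whereas E2f5 was at -0.53 and the MuvB subunit Lin9 at -0.36. With unscaled RPKM, Mybl2, the gene of B-MYB, was called higher at 0.40, and Foxm1 was not called, at 0.06. Of 15 APC/C subunit genes, 6 were called lower, 0 higher and 9 were not called, with Anapc15 at -0.86 and Anapc13 at -0.82, and 11 were called lower after the same scaling. Of 10 cohesin genes, 5 were called lower, 1 higher and 4 were not called, with the acetyltransferase gene Esco2 at -0.67, the ring subunit gene Smc3 at -0.49 and the regulator gene Pds5a at 0.30. Of 19 replication stress and fork repair genes, 6 were called higher, 6 lower and 7 were not called, with a median of 0.13, again near the shares of all tested genes. Those called lower numbered 3 without CTL replicate 1, CTL replicate 3 or 4CBA replicate 2, and those called higher numbered 3 after scaling. The checkpoint kinase genes Chek1 (0.48) and Atr (0.36) were the outermost that rose, and Fanci (-0.47) and Brip1 (-0.24), of the Fanconi anemia pathway, the outermost that fell. Brip1 was not called without CTL replicate 3 or without 4CBA replicate 3 (limma adjusted p = 0.0649 and 0.0693).

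**Figure D5:**
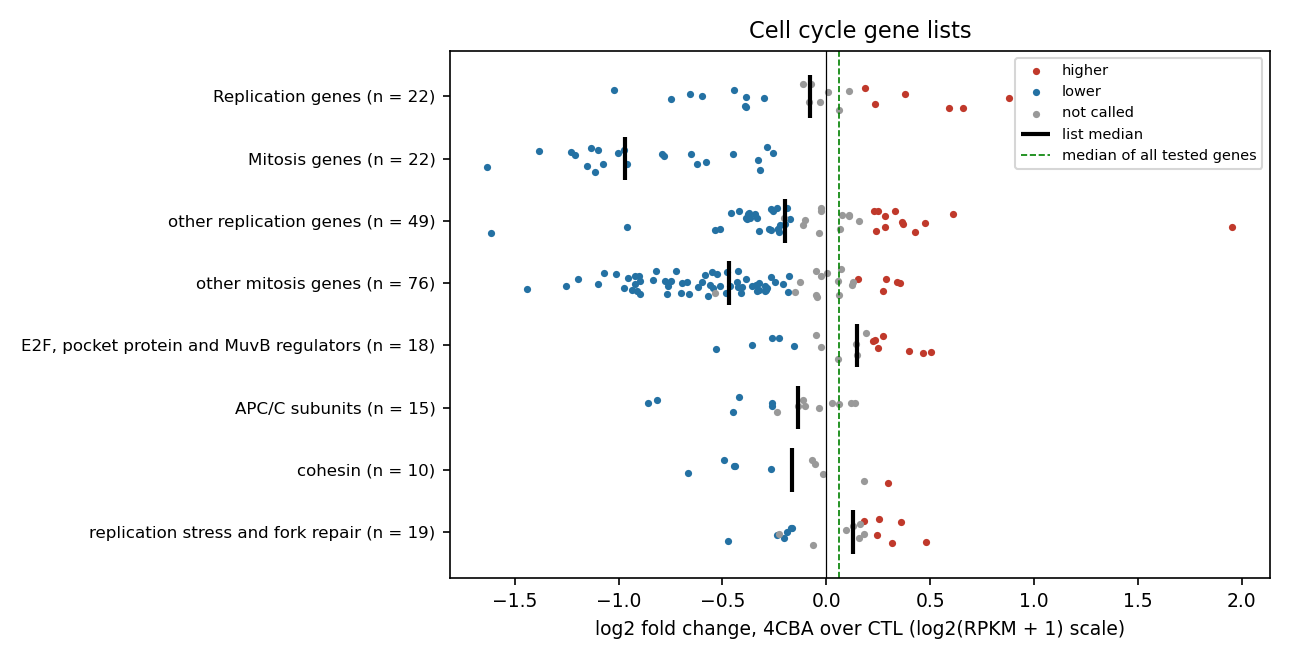
Log2 fold change of 4CBA over CTL for each gene (points, colored by call) in the replication and mitosis groups and in 6 further cell cycle lists, with the median of each list (black line) and of all tested genes (dashed). The mitosis group has the lowest median, -0.97, and the E2F, pocket protein and MuvB list the highest, 0.15.

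Markers of cell identity moved in the same comparison. Summed over 10 brown adipocyte markers, the level was 5202 to 6503 RPKM in 4CBA libraries, against 10480 to 11030 RPKM in CTL libraries. Among these markers 8 of 9 tested were called lower, against 30.0% of all tested genes. Fabp4, a lipid binding protein, carried most of that sum, with 4846 RPKM in 4CBA and 8620 RPKM in CTL on average. Adipoq, the hormone adiponectin, averaged 98.3 RPKM in 4CBA and 636.3 RPKM in CTL, and Ucp1, the uncoupling protein of brown fat, 2.13 RPKM in 4CBA and 34.6 RPKM in CTL. Summed over 10 preadipocyte and fibroblast markers the level was 201.9 to 218.8 RPKM in 4CBA libraries and 285.9 to 320.0 RPKM in CTL libraries, with 7 of 9 tested called lower and 1 higher. Fn1 carried most of this sum, with 154.4 RPKM in 4CBA and 191.5 RPKM in CTL on average, a log2 fold change of -0.31. The part of these changes in the cell cycle results was not tested. The 7 macrophage markers summed to 0.239 to 0.896 RPKM in 4CBA libraries, against 0.632 to 0.812 RPKM in CTL libraries, with Adgre1, Ptprc and Itgam listed at 0 in all libraries. The 6 endothelial markers summed to 0.214 to 0.457 RPKM in 4CBA libraries and 0.078 to 0.164 RPKM in CTL libraries, with Cdh5 and Emcn listed at 0. The 6 muscle markers summed to 10.2 to 11.5 RPKM in 4CBA libraries and 5.88 to 6.26 RPKM in CTL libraries, with Myod1, Myog and Myh1 listed at 0. Acta1 averaged 4.43 RPKM in 4CBA and 0.276 RPKM in CTL and was called higher. Des averaged 6.35 RPKM in 4CBA and 5.84 RPKM in CTL and was not called.

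Exons of 10 members share bases with another protein-coding gene on the opposite strand, namely Gins2, Kif20a, Cdc25c, Ccna2, Mcm7, Cdc45, Rfc4, Fen1, Tk1 and Cdc20. Overlaps with noncoding genes were not searched. The shared length was greatest for Gins2 (2758 bases, with Gse1) and Kif20a (1271 bases, with Cdc23) and was 53 bases for Cdc20. The kit kept strand, but whether the counting used it was stated nowhere in the material used, so values of these genes may hold reads of their neighbors. The same holds for Recql4 (422 bases, with Mfsd3), Ccne2 (609 bases, with Ints8), Orc2 (1150 bases, with Nif3l1), Anapc13 (239 bases, with Cep63), Anapc15 (1981 bases, with Tomt), Fanci (921 bases, with Polg) and E2f5 (26 bases, with 1810022K09Rik). Foxm1 shares 144 bases with Tex52 and 97 bases with Gm44596 on the same strand, where counting by strand would not separate the reads.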

How the data were processed

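Total RNA of 6 libraries, 3 treated with 4CBA and 3 with vehicle (CTL), was sequenced after a stranded mRNA kit from 500 ng. The submitters' processing notes name STAR, HOMER, DESeq2 and the mm10 build, without versions. The authors deposited RPKM values per gene (HOMER, exons, 1 isoform per gene), and a table of deposited log2 values made by an unstated transform. The log2 table also holds columns of the authors' own comparison, which were not used, and keeps another isoform for 9 of the 44 members. The RPKM header names 24 libraries, of which 6 are columns.

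Genes with at least 0.5 RPKM in at least 3 libraries (12659 of 24537) were tested with limma 3.58.1 in R 4.3.3 on log2(RPKM + 1), with trend and robust estimation, group only, two-sided, and Benjamini-Hochberg adjusted p below 0.05 as the call. The study used DESeq2 on counts, which RPKM does not permit. Reads per library were estimated from the steps of low RPKM values in each library, 10800000 to 11500000 for 4CBA and 9400000 to 12200000 for CTL. About 80% of those values (79.9% to 82.2%) lay within 0.15 of whole reads, so the depth is approximate and no count test was run. The fit was tested on simulated data before use.

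The members and lists were chosen with earlier results of these data known. All 44 members are named, and of each further list up to 2 called genes per direction, by size of change, with a mean of at least 1 RPKM in the higher group. Mybl2 and Foxm1 are named in addition, because their proteins appear in the background. Replicate numbers did not pair libraries (correlations of deviations of same-numbered libraries -0.07, -0.03 and -0.03). Promoter sequences and positions came from RefSeq (GRCm38.p6), and exon overlaps with protein-coding genes from GENCODE. Results were recomputed without a filter, with a filter at 1 RPKM, a pseudocount of 0.1, a replicate block, libraries scaled to the same median, the deposited log2 values, no robust estimation, and each library left out, 13 in all.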

Additional observations from a re-analysis of the deposited data

How the results depend on the processing

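All 22 mitosis genes were called lower under each of the 13 alternatives, with a group median between -1.08 (libraries scaled to the same median) and -0.92. Of 572 values of members under alternatives, 556 kept their direction and their side of the threshold. The scaling, which moved the median of all genes by -0.099, also moved the median of the replication group. That median was -0.20 after scaling, -0.15 with the deposited log2 values and between -0.103 and -0.072 with 1 library left out. Mcm4 (-0.23 and -0.18), Mcm5 (-0.20 and -0.15) and Fen1 (-0.19 and -0.15) were called lower under scaling and under the deposited log2 values. Mcm7 was not called under scaling (0.07). Mcm6 was -0.11 under scaling, -0.058 under the deposited values and -0.012 to 0.017 with 1 library left out. Cdc45 was -0.0067 and Rfc3 -0.057 under scaling, Rfc3 was -0.0061 under the deposited values, and Gins1 lay between -0.118 and 0.0305 with 1 library left out. None of these 4 genes was called with all libraries and the unscaled RPKM, and Mcm6 was called lower under scaling (limma adjusted p = 0.0491). Genes called higher numbered 3 under scaling among other mitosis genes, E2F regulators and replication stress genes. APC/C genes called lower numbered 11 under scaling and 10 under the deposited values. With 1 library left out, 3 to 5 other mitosis genes, 0 to 1 APC/C genes and 1 to 2 cohesin genes were called higher, and 3 to 5 replication stress genes lower. With the replicate block 4765 genes were called higher and 3734 lower, other mitosis genes called higher numbered 3, and no member changed its call. The cause of these shifts was not tested.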
